A study of Homo sapiens with 3 samples.

Results

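Partly uridylated mRNA windows are stretches of 50 nt annotated as mRNA in which under 60% of the reads bound by DIS3L2 carried an untemplated 3′ tail of at least 4 uridines. They were chosen by 3 conditions: the row is annotated as mRNA, its gene has no other mRNA row, and fewer than 60% of its uniquely mapped reads are uridylated, a share called the U+ fraction. Histone and zinc finger genes, named by their symbols, and OAT, RPL12 and RPS12 were left out, which removed 57 single-window rows. Of the 874 single-window rows that remained, 223 were partly uridylated (25.5%, the share that the rule itself fixes) and 651 were not. The whole table holds 1533 windows, of which 1136 are mRNA rows.

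The data come from a single group of 3 CLIP libraries (crosslinking and immunoprecipitation followed by sequencing) made from HEK293 cells, a human embryonic kidney line, in the derivative HEK293T-Rex that allows induced expression. The cells carried a stably integrated, inducible construct for DIS3L2 D391N, a catalytically inactive mutant with a C-terminal Flag tag, and overexpressed it. The samples include no control group, so all values describe RNA that the overexpressed mutant bound. The authors summed both counts of each window over the 3 libraries, which leaves no spread between replicates, so no test was made and intervals are 95% Wilson intervals which cover counting error but not PCR copies, since these are not independent molecules.

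DIS3L2 is a cytoplasmic exoribonuclease that degrades RNA from the 3′ end and prefers RNAs that end in a run of uridines. Such tails are added after transcription by terminal uridyltransferases, of which TUT4 and TUT7 are the best known, and they mark precursors of let-7 microRNAs and many defective non-coding RNAs for decay. A mutant that binds without cutting holds on to its RNAs. Reads without a tail are here all unique reads not counted as uridylated, so reads with a tail shorter than 4 uridines can be among them. Such a read can also come from an RNA that had no tail or from a fragment whose 3′ end lay elsewhere. These sources of untailed reads cannot be told apart in window counts.

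Middle stretches of the 6 members with the most unique reads are shown first, because encoded T was the base whose content differed most between the partly uridylated windows and the rest. The bases are positions 11 to 40 of the window on the gene's strand, 5′ to 3′, from GRCh37, with T in capitals. KHDC1 lies at chr6:74019810-74019839 on the minus strand, GNAS at chr20:57466460-57466489 on the plus strand and GLUL at chr1:182360810-182360839 on the minus strand. ZYG11B lies at chr1:53192160-53192189 and HS3ST3B1 at chr17:14204410-14204439, both on the plus strand, and SLC7A5 at chr16:87903060-87903089 on the minus strand.
KHDC1: TgcTccgTTcTccgggTccTcTccTccggT
GNAS: cggcggcagcggcggcagcagcTcccgcag
GLUL: TacccgcccgccTgcTcggcgaccaggTaa
ZYG11B: TgcggcTgcggcTgcTacTgcTacgcTccT
HS3ST3B1: TgcagccTcTgcggggaagTgccggggcTg
SLC7A5: gcgcacacTgcTcgcTgggccgcggcTccc
The KHDC1 stretch holds 10 T in 30 bases and the GNAS stretch 1, so the deepest windows include both T-rich and T-poor sequence.

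For comparison, the same positions are given for 4 of the deepest windows at or over the 60% limit. UACA (chr15:71055810-71055839) and NETO2 (chr16:47177760-47177789) lie on the minus strand, CEBPG (chr19:33864660-33864689) on the plus strand and ABHD3 (chr18:19284660-19284689) on the minus strand.
UACA: cgccgccTcTgcTgcagccgcTgccgTcTa
NETO2: cTccTcggcccTcgggcggTcgaTgggacg
CEBPG: gaacgggcggaggcTgccggTTTcgTaacc
ABHD3: TcTcgcccgcTcgccagccggcTcTccTcc
These hold 5 or 6 T in 30 bases. UACA had 1270 uridylated of 1715 unique reads (74.1%) and CEBPG 403 of 616 (65.4%).

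The partly uridylated windows were deeper than the rest. Their median was 108 unique reads, with quartiles of 55.5 and 189.5 and a range of 7 to 3306, against a median of 48 in the other 651 windows. Uridylated reads differed less, with medians of 50 and 37. Reads without a tail, which the rule works on directly, had medians of 53 and 11. A depth of at least 100 unique reads was reached by 118 of the 223 members (52.9%, 46.4 to 59.4) and by 141 of the 651 others (21.7%, 18.7 to 24.98).

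The members made up a growing share of the windows from shallow to deep. Among the 228 windows with 7 to 34 unique reads, 24 were members (10.5%), and among the 212 windows with 35 to 56 reads, 34 were (16.04%). Of the 215 windows with 57 to 112 reads, 60 were members (27.9%), and of the 219 windows with 113 or more, 105 were (47.9%). The authors' selection also depends on depth. As stated, it kept a window if a frequency above 0.25 had a posterior probability of 0.95 or more, a rule that some listed windows do not meet. Recomputed on pooled counts, this takes 9 uridylated reads at 20 unique reads (45%), 33 at 100 (33.0%) and 532 at 2000 (26.6%). A shallow window with few tails therefore had less room to be listed, and how much of the gradient this accounts for was not tested.

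**Figure D1:**
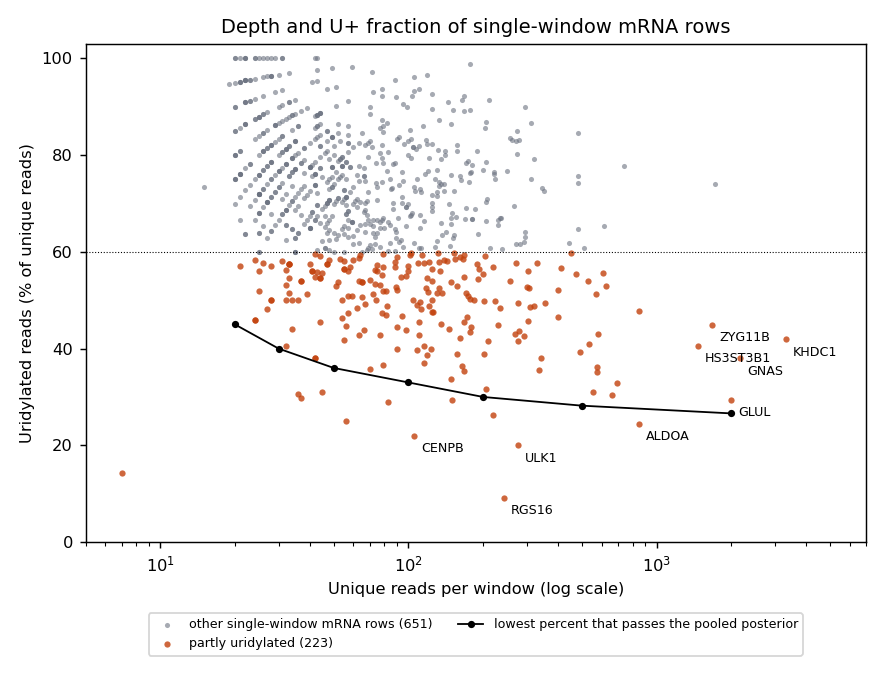
Unique reads per window (x axis, log scale) against uridylated reads as a percent of unique reads (y axis) for the 874 single-window mRNA rows, with the 60% limit dotted and the black line giving the lowest percent that passes the pooled posterior at 7 read numbers from 20 to 2000. The 223 partly uridylated windows (orange) reach 3306 unique reads, and 12 of them do not pass the pooled posterior.

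Summed over windows, the members held 19775 uridylated reads of 44033 unique reads, or 44.9% (44.4 to 45.4). The other single-window rows held 38378 of 51035, or 75.2%. The members contributed 18.3% of the uridylated reads and 22.3% of the unique reads of all mRNA rows. Their reads were concentrated, since the 12 deepest windows held 35.1% of the members' unique reads. By window the median U+ fraction was 51.3%, with quartiles of 44.03% and 56.1%. It lay under 50% in 95 windows, under 40% in 36 and under 30% in 11.

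The deepest member was KHDC1, which encodes a protein with an RNA-binding KH domain. It had 1385 uridylated of 3306 unique reads, or 41.9% (40.2 to 43.6), in the 5′ UTR and 42 nt past the nearest annotated start. GNAS, the stimulatory G protein α subunit, followed with 821 of 2162 reads, or 38.0% (36.0 to 40.04). The GNAS window lay in an intron of the listed transcript, 50575 nt past its start, but its midpoint was 2 nt before the start of another GNAS transcript. GLUL, glutamine synthetase, had the lowest fraction of the 5 deepest, with 587 of 1997 reads, or 29.4% (27.4 to 31.4). ZYG11B, a substrate receptor of a cullin ubiquitin ligase, had 750 of 1670 reads, or 44.9% (42.5 to 47.3). HS3ST3B1, a heparan sulfate sulfotransferase, had 593 of 1463, or 40.5% (38.0 to 43.1). The intervals of GLUL and GNAS overlapped neither each other nor that of ZYG11B, so among the deepest windows the fractions differed by more than the counting error.

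The other 7 of the 12 deepest windows held 579 to 850 unique reads. SLC7A5, the light chain of a large neutral amino acid transporter, had 406 uridylated of 850 reads (47.8%), and ALDOA, the glycolytic fructose-bisphosphate aldolase, had 207 of 845 (24.5%). The fractions of these windows, of like depth, were thus far apart. CYB561A3, a member of the cytochrome b561 family, had 228 of 695 (32.8%), and TBX3, a T-box transcription factor, had 201 of 663 (30.3%). ZCCHC12, a zinc knuckle transcriptional coactivator, had 330 of 623 reads (53.0%), and MLXIP, a glucose-responsive transcription factor also called MondoA, had 337 of 606 (55.6%). IMPDH2, the inosine monophosphate dehydrogenase of guanine nucleotide synthesis, had 249 of 579 (43.0%), and its window midpoint lay in the coding sequence, 13 nt from the nearest annotated start.

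The windows with the lowest fractions carried mostly reads without a tail. RGS16, a regulator of G protein signalling, had 22 uridylated of 242 unique reads, or 9.09% (6.08 to 13.4), in its 5′ UTR and 100 nt past the start. ULK1, a kinase that starts autophagy, had 55 of 275, or 20% (15.7 to 25.1), also in the 5′ UTR. CENPB, a protein that binds centromeric repeats, had 23 of 105, or 21.9% (15.1 to 30.7), at the 3′ end of its transcript. Besides ALDOA, the 6 lowest windows included APPBP2, an adaptor of a cullin ligase, with 14 of 56, and ARID5B, an AT-rich interaction domain protein, with 58 of 220 (26.4%). The window with the fewest reads was RAP1GAP, an activator of the Rap1 GTPase, with 1 uridylated of 7 reads and an interval of 2.57% to 51.3%, which covers most fractions in the set.

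**Figure D2:**
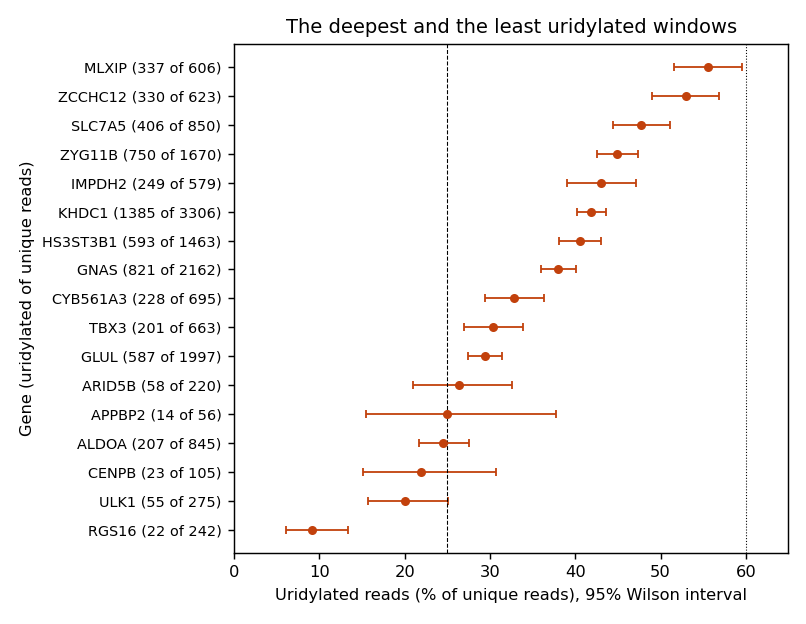
Uridylated reads as a percent of unique reads (x axis) with 95% Wilson intervals for the 12 deepest members and the 6 members of lowest fraction with at least 20 unique reads, ALDOA being in both. The dotted line is the 60% limit and the dashed line the authors' frequency threshold of 0.25, and RGS16 is the single window of this plot whose whole interval lies under 15%.

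A posterior recomputed from the pooled counts reached 0.95 in 211 of the 223 members and in all 651 others. The 12 that did not reach it were RGS16, RAP1GAP, ULK1, CENPB, ALDOA, APPBP2, ARID5B, APOO, SOX4, PSMG1, EIF4G3 and ENDOG. The authors multiplied the posterior over libraries, so a pooled count is not their criterion, and the counts of single libraries were not used here. A product of 0.95 needs a fraction above 0.25 in each library, and so also in the pooled counts. RGS16, RAP1GAP, ULK1, CENPB, ALDOA and APPBP2 had 25% or less, so on these counts no split over libraries meets the stated rule. For the rest of the 12 this was not tested. Without these 12 windows the median depth remained 108 unique reads.

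The limit of 60% divides a continuous range. SLBP, which binds the stem-loop of histone mRNAs, lay just under it with 91 of 152 reads (59.9%), as did RNF135, a ubiquitin ligase, with 79 of 132 (59.8%). PTPLAD1, an enzyme of very long chain fatty acid synthesis, had 61 of 102 (59.8%), and MEPCE, the capping enzyme of 7SK RNA, had 270 of 452 (59.7%). COPRS, CBR1, POLB and ETNK1 lay on the other side at exactly 60%, on 25 to 65 unique reads. Of the 223 members, 104 had a Wilson interval wholly under 60%, while the interval of 119 held it. Of the 651 others, 275 had an interval that held it.

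Most members lay at the start of a gene, as the other windows did. The midpoint was in the 5′ UTR in 146 members (65.5%, 59.0 to 71.4) and in 428 others (65.7%). It was in the coding sequence in 27 members (12.1%), in the 3′ UTR in 12 (5.38%, 3.10 to 9.17, against 3.07% of the others), in an intron in 13 and upstream of the listed transcript in 19 (8.52%, against 14.3%). In 3 members it lay downstream of the listed transcript. In 3 more, AP006621.5, C5orf55 and C19orf48, it lay in an exon of a transcript without a coding sequence. Within 150 nt of the nearest annotated start of any transcript of the gene lay 198 members (88.8%) and 580 others (89.1%), shares that differed by less than their counting error. From the start of the listed transcript alone the shares were 172 of 223 (77.1%, 71.2 to 82.2) and 544 of 651 (83.6%, 80.5 to 86.2), whose intervals overlap.

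The members lay a little further into the transcript. The median distance from the gene's nearest start was 33 nt, against 26.5 nt in the others, and from the listed start 67 nt against 49 nt. In the 4 groups of depth given above, shallow to deep, the members' medians from the listed start were 98, 101.5, 53.5 and 55 nt. Those of the others were 50, 50, 45 and 50.5 nt, so the difference was small in the deeper windows. The listed start itself was inside the window in 33 members (14.8%, 10.7 to 20.1) and in 158 others (24.3%, 21.1 to 27.7). Distances run from the window midpoint, and window starts are multiples of 50, so they locate a window and not the 3′ end of a read.

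**Figure D3:**
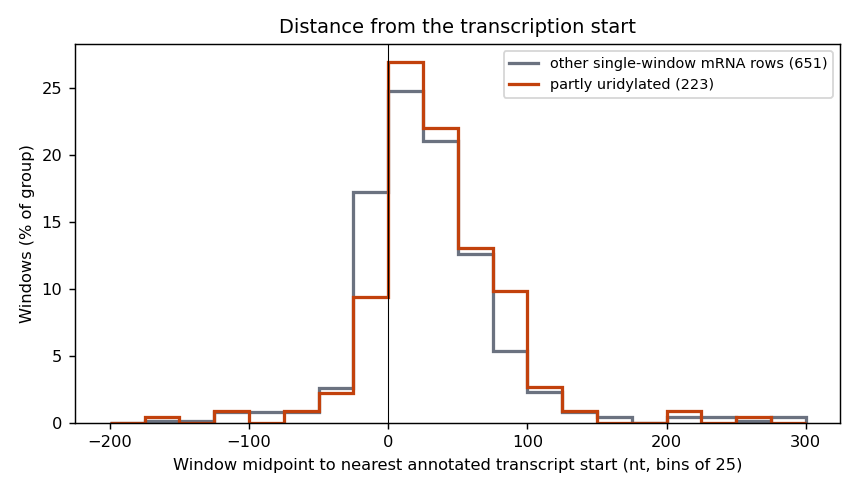
Distance of the window midpoint from the nearest annotated transcript start (x axis, nt in bins of 25, negative upstream) for members (orange) and other single-window rows (grey), as a percent of each group (y axis), with windows more distant than the axis counted in the percent but not drawn. Both outlines peak just past the start, and the bin before it holds a larger share of the others.

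Some windows cross the end of exon 1 into intron 1, and a read that spans this junction comes from unspliced RNA. Of the members, 13 crossed it (5.83%, 3.44 to 9.72), against 27 of the others (4.15%, 2.87 to 5.97), and the intervals overlap. They were NXF1, STIL, GPX4, HNRNPK, PLCG1, SFXN2, CDIP1, BET1L, RBMX, TRADD, WDHD1, CSNK1G1 and PLSCR3. The junctions of the 4 deepest are shown with 15 bases of exon in lower case and 15 of intron in capitals, GRCh37, 5′ to 3′ on the gene's strand. The printed bases can run past the window. The NXF1 window ends at chr11:62572800, the first base of the intron, so the other printed intron bases lie outside it. Read as 0-based, the NXF1 window would not reach the intron. NXF1 is at chr11:62572786-62572815, STIL at chr1:47779693-47779722 and HNRNPK at chr9:86595053-86595082, all on the minus strand, and GPX4 is at chr19:1104112-1104141 on the plus strand.
NXF1: ggaagtcgtacagcgGTAAGTGCTGGTCTT
STIL: tccgcggaagttgcgGTAAGTGGAGCTTTG
GPX4: ctggccgggaccatgGTGAGCTAGCGCCGC
HNRNPK: cggcagtctcgcgcgGTGAGGAGCCGGGTT
All 4 introns begin with GT followed by A or G, the usual donor. NXF1, the main export receptor of mRNA, had 130 uridylated of 342 reads (38.0%), STIL, a centriole assembly protein, 108 of 188 (57.4%), GPX4, a selenoprotein that reduces lipid hydroperoxides, a fraction of 58.4% on 154 reads, and HNRNPK, a poly(C)-binding protein, 67 of 124 (54.0%). Whether single reads span the junction was not tested, since the table holds counts alone.

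A small set of members lay far from any start. More than 150 nt from every annotated start of their gene were 25 members, with a median of 60 unique reads and a U+ fraction of 48.5%, and 70 other windows. The 25 held a median of 28% T and 46% GC, against 18% and 64% in the 70, and 11 of the 25 and 18 of the 70 were in a 3′ UTR. Within 50 nt of the end of the listed transcript lay 8 members (3.59%, 1.83 to 6.92) and 4 others (0.614%, 0.239 to 1.57). Chosen after their values were seen, they include TOP2A, DNA topoisomerase II α, with 50 of 148 reads at 3 nt past it. GAPDH, a glycolytic dehydrogenase, had 97 of 166 reads at 19 nt past the end. CENPB, SRRM2, SLC38A1 and HNRNPUL1 were at 0 to 39 nt before theirs. SRRM2 also lay 95 nt from an annotated start of its gene, so it is not one of the 25.

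Of the 4 bases, encoded T differed most in median content between the members and the rest. The median window held 20% T (quartiles 14% and 24%), against 12% (10% and 16%) in the others. A was 12% in both groups. G was 34% against 38%, C 34% against 36% and GC together 70% against 76%. The folding energy computed for the 50 nt was weaker in the members, at a median of −16.1 against −20.1 kcal/mol. The same held among 5′ UTR windows alone, with T at 18% against 12%, GC at 70% against 76% and folding energy at −16.65 against −20.3 kcal/mol. Windows are not replicates of a condition, and these are descriptions of the listed windows.

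The difference in T was present in each of the 4 depth groups, from shallow to deep. In that order, the members' median T was 18%, 17%, 18% and 20%, and that of the others 12%, 12%, 14% and 14%. GC was 68%, 64%, 71% and 70% in the members and 74% to 76% in the others.

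Ordered by T content, the share of windows under the limit rose in each step. Of 169 windows with at most 8% T, 10 were members (5.92%) and the median U+ fraction of all 169 was 78.3%. Of 307 windows with 10% to 14% T, 57 were members (18.6%), with a median fraction of 73.5%. Of 245 windows with 16% to 20% T, 71 were (29.0%, median 67.6%), and of 153 windows with 22% or more, 85 were (55.6%, median 56.5%). The median depth rose with it, from 44 to 56, 65 and 70 unique reads. Among windows with at least 100 unique reads the shares were 3 of 30, 30 of 87, 38 of 81 and 47 of 61, or 10%, 34.5%, 46.9% and 77.0%. The T groups thus stood in the same order at high depth.

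**Figure D4:**
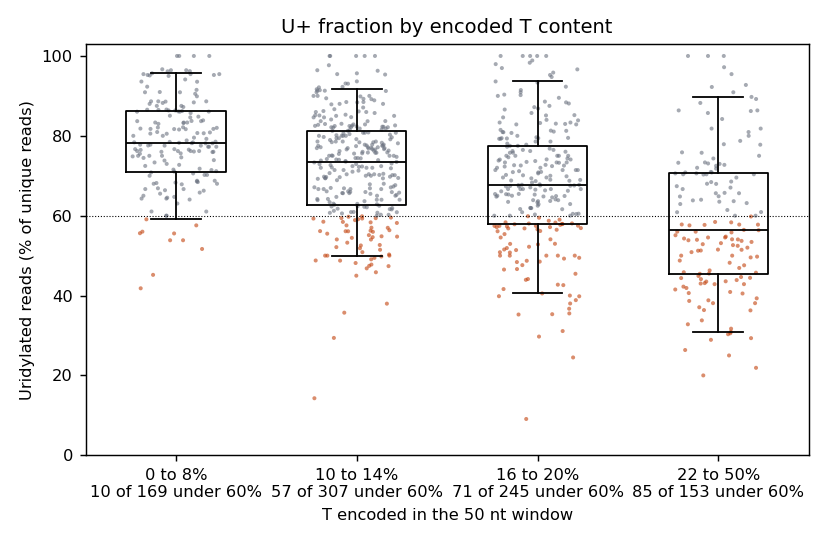
Uridylated reads as a percent of unique reads (y axis) for the 874 single-window rows in 4 groups of encoded T content (x axis); boxes give quartiles and median, whiskers the percentiles 5 and 95, points single windows (orange under the dotted 60% limit) with random sideways spread. The median falls from 78.3% to 73.5%, 67.6% and 56.5%.

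Over the 874 windows the Spearman correlation of T content with the U+ fraction was −0.392, and over the 259 windows with at least 100 unique reads it was −0.448. A content had a correlation of −0.00447, C of 0.0469, G of 0.264, GC of 0.293 and folding energy of −0.197 over the 874 windows. The number of unique reads had −0.387, close to the value of T. Over the 259 deeper windows the values were −0.0326 for A, −0.0165 for C, 0.356 for G and 0.348 for GC. Folding energy had −0.215 there and the number of unique reads −0.254. All windows share the 3 libraries and the authors' selection, so these values describe the table and have no p. A tail is called where the genome does not encode its T, and how encoded T near a read's end bears on that call was not tested.

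Runs of encoded T were more frequent in the members, and the difference in T content was also seen in windows without them. A run of at least 4 T, the length at which an untemplated tail is called, was in the window of 22 members (9.87%, 6.61 to 14.5) and of 15 others (2.30%, 1.40 to 3.77). Counting also the next 50 nt downstream, such a run was found for 38 members (17.0%) and 37 others (5.68%). Among windows without one, the median T was still 18% in the members and 12% in the others. No 2 adjacent T occurred in 54 members (24.2%) and in 347 others (53.3%). The middle stretches of SRRM2, near its 3′ end, and of MAP4K5, in its 3′ UTR, show encoded T runs in 3′ UTR members, again with T in capitals. They are not typical of T-rich members, since 49 of the 85 members with 22% T or more lay in the 5′ UTR. SRRM2 is at chr16:2821360-2821389 on the plus strand and MAP4K5 at chr14:50886460-50886489 on the minus strand.
SRRM2: aTcTgTacagcaagagcaacTTTTTcTgTc
MAP4K5: TccaggaaacacagTcTTTTTTTaaaaaaa
SRRM2 had 54 of 98 reads (55.1%) and MAP4K5, a protein kinase, a fraction of 58.3% on 60 reads. At the other end of the range, CHMP4B, a membrane remodelling protein named after its value was seen, held no T and had a fraction of 56.0% on 25 reads.

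The genes were grouped by 13 lists of symbols, which were drawn up with the names in this table and earlier results of it known. The lists are therefore no independent evidence of which functions the members have, and nothing is called particular to a list. At least 1 list held 175 of the 874 windows, of which 85 were members (48.6%), and of the 699 windows in no list 138 were (19.7%), beside 25.5% over all. The windows in a list were deeper, at a median of 75 unique reads against 54 in no list, and these shares are not matched for depth. Median U+ fractions below compare with 71.0% over the 874 windows.

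The 4 lists of splicing factors, hnRNP proteins, spliceosome proteins and helicases held 27 windows, of which 17 were members (63.0%, 44.2 to 78.5). Among windows with at least 100 unique reads the share was 64.3% (38.8 to 83.7), an interval that holds the 45.6% over all windows of that depth. Other genes of RNA processing are in the table and not in these lists. Of 9 windows of SR proteins and related splicing factors 7 were members, at a median of 52.6% over the 9. SRSF7 had 187 of 401 reads (46.6%), TRA2A 122 of 280 (43.6%) and SRSF2 70 of 133 (52.6%). All of these bind exonic enhancers through their RNA recognition motifs. SRSF6 and SRSF5 had the lowest fractions of the list, with 38.9% and 39.8%, while SREK1 and TRA2B lay above the limit at 77.0% and 76.3%. TRA2A and TRA2B, close paralogs, thus stood on either side.

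Of 9 windows of hnRNP proteins, which coat nascent transcripts, 5 were members. HNRNPU had 80 of 172 reads (46.5%), HNRNPK the 54.0% given above and HNRNPR 25 of 54 (46.3%). Among proteins of the spliceosome 3 of 5 were members. SART1, a tri-snRNP protein, had 218 of 533 reads (40.9%), LSM7, a subunit of the Lsm ring that binds U6 RNA, 158 of 300 (52.7%), and SNRNP70, the U1 70K protein, 47 of 79 (59.5%). Of 4 DEAD/DEAH-box helicases 2 were members, DDX5 with 20 of 44 reads and DHX9 with 17 of 33. DDX3X and DDX41 were not, at 64.8% and 88.4%. The members in these lists held a wide range of depths, from 33 reads in DHX9 to 533 in SART1.

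The list of RNA polymerase subunits and elongation factors, which leaves out general transcription factors, had 5 members of 6 windows. Its windows were deep, at a median of 290 unique reads against 56 over all windows, and the share of members rises with depth. AFF1, a scaffold of the super elongation complex, had 202 of 573 reads (35.3%), and POLR2C, a core subunit of RNA polymerase II, 170 of 303 (56.1%). MEPCE, which caps and stabilizes 7SK, had the most uridylated reads of the list and lay just under the limit. POLR2A, the largest subunit of the polymerase, was the 1 window outside, with 66 of 94 reads (70.2%).

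In translation, 3 of 6 windows of cytosolic ribosomal proteins and 5 of 9 of translation factors and tRNA synthetases were members. RPSA had 116 of 269 reads (43.1%), RPS24 100 of 201 (49.8%) and RPL28 83 of 157 (52.9%), and windows outside the members included RPS9 at 73.3% and RPL39L at 81.6%. The RPSA and RPS24 windows each held 36% T and lay within 33 nt of an annotated start. EEF1B2, an exchange factor of elongation, had 46 of 119 reads (38.7%), YARS2, the mitochondrial tyrosyl-tRNA synthetase, 24 of 44 and HBS1L, a ribosome rescue factor, 23 of 40. The pattern used for this list also caught EIF2AK1, a kinase and not a factor, among the windows outside.

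Nuclear-encoded mitochondrial proteins held 10 members of 20 windows, at a median of 60.4%. ATP5S, listed under an older symbol, had 151 of 310 reads (48.7%). TOMM20, the import receptor of the outer membrane, had 124 of 291 (42.6%) and TIMM13, a chaperone of the intermembrane space, 113 of 233 (48.5%). The TIMM13 window lay in an intron, 212 nt past the start. APOO, a subunit of the cristae junction complex, had the lowest fraction of the list with 24 of 83 (28.9%), and NDUFB7, a complex I subunit, the highest with 95.8%.

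Among enzymes of glycolysis and of carbon and nucleotide metabolism, 11 of 29 windows were members (37.9%, 22.7 to 56.0). Next to GLUL, IMPDH2, ALDOA and GAPDH given above, GCH1, the first enzyme of tetrahydrobiopterin synthesis, had 232 of 410 reads (56.6%). The 29 windows ranged from 24.5% in ALDOA to 97.96% in PDHX, a component of the pyruvate dehydrogenase complex. Solute carriers of other membranes had 4 members of 9 windows, SLC7A5, SLC2A13 with 67 of 113 reads, SLC38A1 with 31 of 55 and SLC7A2.

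Genes of DNA replication, repair and chromosome segregation held 15 members of 32 windows (46.9%, 30.9 to 63.5). TERF2IP, the telomeric protein RAP1, had 160 of 305 reads (52.5%), STIL the 57.4% given above, and BRCA2, a mediator of homologous recombination, 68 of 161 (42.2%). TOP2A and CENPB, both at their transcript ends, had the lowest fractions of the list beside RNASEH1, at 33.8%, 21.9% and 35.7%. CLSPN, a checkpoint adaptor, had 89.9% on 296 reads and was the deepest window of the list outside the members.

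Immediate-early and growth-regulated genes held 9 members of 20 windows. TSC22D1, a leucine zipper protein, had 285 of 527 reads (54.1%), MYC, the transcription factor, 172 of 556 (30.9%), and BTG2, an antiproliferative adaptor of deadenylation, 137 of 277 (49.5%). The MYC window held 32% T and spanned the annotated start, with its midpoint 3 nt before it. RGS16, the lowest of all members, belongs to this list. Lineage transcription factors held 6 members of 17 windows (35.3%), and the 3 with the most uridylated reads, TBX3, ARID5B and SOX4, had 30.3%, 26.4% and 29.3%. SOX4, an HMG-box factor, had 44 of 150 reads. CEBPA at 57.4% and CEBPG at 65.4%, from 1 family of basic leucine zipper factors, lay on different sides of the limit.

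**Figure D5:**
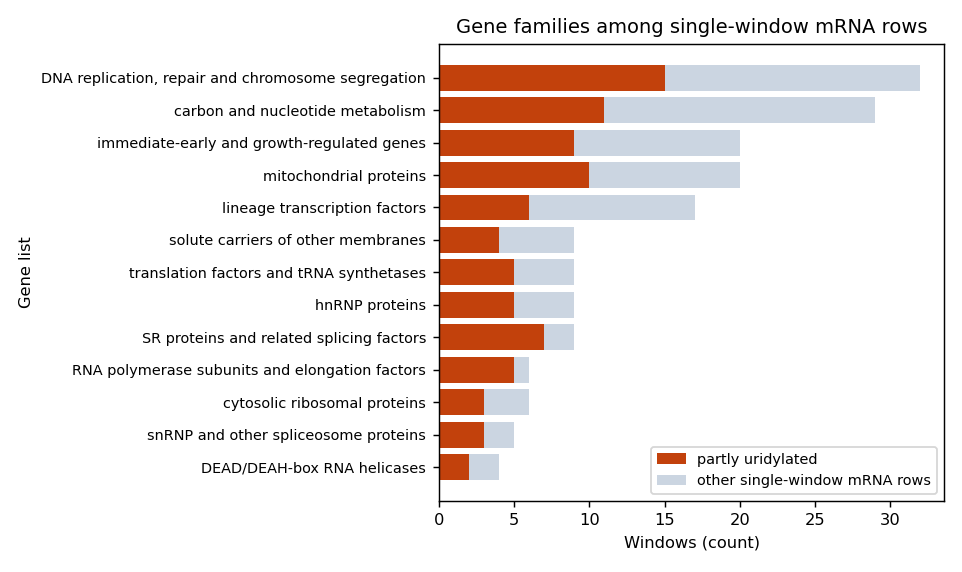
Number of single-window mRNA rows (x axis) of each of 13 gene lists (y axis), split into partly uridylated windows (orange) and others (grey). The lists hold 4 to 32 windows, and between 35.3% and 83.3% of them are members, beside 25.5% over all 874 windows. Depth is not matched, and the lists have medians of 37 to 290 unique reads, against 56 over all.

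Some members could take reads from elsewhere. A near-identical copy of the window existed elsewhere in the genome for 8 members (3.59%) and 6 others (0.922%). Those members were OLA1, TOMM20, ID2, FTH1, SRSF6, ACER2, ATP5E and LYPLA1, and since reads that map to several places were dropped, their counts are uncertain. Another gene on the same strand overlapped 14 members (6.28%) and 45 others (6.91%), so their reads could belong to either gene. Those members include ALDOA, IMPDH2, MEPCE and POLR2C. A gene on the opposite strand overlapped 32 members (14.3%) and 118 others (18.1%). Another listed window lay within 1000 nt on the opposite strand for 3 members, MEPCE, POLR3C and DDX5, and on the same strand for 1, TNPO1, whose neighbour is listed as a long non-coding RNA.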

How the data were processed

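CLIP reads of 3 libraries were mapped by the authors to the genome (GRCh37/hg19, Segemehl), and reads left unmapped were mapped once more after their terminal T runs were removed. A read with a unique position counted as uridylated where its last 4 or more T are absent from the genome. The authors kept windows of 50 nt with at least 20 reads over the libraries whose posterior probability of a frequency over 0.25 reached 0.95, so windows without tails are unseen. The table does not meet the stated minimum throughout, since RAP1GAP is listed with 7 unique reads and the shallowest of the other single-window rows with 15. Nor does it meet the stated posterior throughout, since RGS16 is listed with 22 uridylated of 242 unique reads. Per the submitters' processing notes Subread was also used, in a role not given in the sources used here. The deposited table holds, per window, raw counts of unique and uridylated reads summed over the libraries by the authors, and 2686158 unique reads in all. The depth of each library is unknown. Columns with the authors' own frequency and posterior were not used.

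The U+ fraction is uridylated over unique reads, with Wilson intervals at 95% (scipy 1.17.1, tested on simulated data). The posterior was recomputed on pooled counts with a uniform prior. Windows were read 1-based, placed on GENCODE release 44 mapped to GRCh37 (for the 223 members by the listed transcript in 201 and by the canonical transcript of the listed gene in 22) and folded with ViennaRNA 2.7.2. Near-identical copies match at least 45 nt with at most 2 differences (blastn 2.17.0). Symbols are those of the table, and 19 of the 223 have changed since. The members and gene lists were chosen with earlier results of these data known. Named windows are the 12 deepest, the 6 lowest with at least 20 reads, the shallowest, 4 on each side of the limit and up to 3 per list with the most uridylated reads; others named were chosen after their values were seen. Alternatives were limits of 0.5 and 0.7, at least 100 unique reads, windows that pass the pooled posterior, the name exclusions undone, other distances, flanks and 0-based starts.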

Additional observations from a re-analysis of the deposited data

How the results depend on the processing

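The counts are pooled, so leaving out 1 library was not possible, and no paired analysis was possible because the series has 1 group. Of 33 values under alternatives, 17 moved by less than their interval. The share in the 5′ UTR, which differed by less than its counting error, was below that of the others (65.5% against 65.7%) but above it with a limit of 0.5 (66.3% against 65.6%), with a limit of 0.7 (67.6% against 64.03%) and with at least 100 unique reads (72.03% against 69.5%), so no direction is read from it. With a limit of 0.5, members were 10.9% of the windows, with a median depth of 145 unique reads, 69.5% of them within 150 nt of the listed start, median T of 22%, and 33.3% of the windows of the 4 RNA processing lists. With a limit of 0.7 they were 46.6% of the windows, with a median depth of 78 reads, T of 16%, GC of 72% and folding energy of −18.1 kcal/mol. With at least 100 unique reads they were 45.6% of the windows, with a median depth of 177.5 reads (151 in the others), and 82.2% within 150 nt of the listed start. The share near the start was 88.8% for the nearest start of any transcript and 65.5% within 100 nt of the listed one. The share of members and their depth therefore depend on the limit and on the depth required, and their excess of T over the other windows was present under each alternative run for it. Intervals cover counting error only, and at depths near 20 reads a fraction is known only within wide bounds.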
